A study of Mus musculus with 6 samples.

Results

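The DNA replication machinery was described as 57 named genes out of the 17691 genes of the deposited table, chosen by symbol from the origin of replication to the packaging of new DNA. All 57 were found by symbol, and all 57 passed the filter on low counts, as did 12283 genes in all. Both groups were C57BL/6J mouse erythroblasts, immature red cells that still have a nucleus, isolated from fetal liver as cells lacking the surface antigen TER119 and kept in culture with erythropoietin (Epo), the hormone that drives red cell production. The treated group received carbon dots (CDs, nanometre-sized carbon particles made from the plant Codonopsis pilosula) at 1 ug/ml for 30 h, and the untreated group received none. Each group has 3 libraries of poly(A)-selected RNA, numbered 1 to 3. The labels give neither the age of the fetuses nor whether the numbers stand for separate cultures, litters or days, and each p-value therefore rests on the variation among these libraries, which may be technical.

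DNA is copied from origins that are licensed in G1 phase, when the origin recognition complex (ORC), Cdc6 and Cdt1 load a pair of Mcm2-7 rings, and that fire in S phase, when Cdc45 and the GINS complex turn each ring into a working helicase. Polymerase alpha with primase starts each strand, polymerases epsilon and delta extend the leading and lagging strands, and a sliding clamp placed by a clamp loader keeps them on the template. Most of these genes are known targets of E2F transcription factors and are transcribed towards S phase. In fetal liver, TER119-negative erythroblasts are known to divide rapidly, and cell division ends as they mature.

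Promoter sequences are shown because many of the members carry an E2F motif. The part of this motif in the members' differences between libraries was not tested. The RefSeq promoter table for GRCm38.p6, with 250 bases before and 50 bases after a gene's start, held 47 of the 57 members. Ccne2, Gins1, Gins2, Gins4, Gmnn, Mcm4, Pole, Prim2, Rfc2 and Tipin were not among them. The E2F consensus was searched on both strands as TTTGGCGC, TTTCCCGC, TTTGCCGC or TTTCGCGC, of which several can overlap. It was found in 17 of the 47 members (36.2%), against 4.75% of the 9874 tested genes and 2.60% of all 27025 genes in the table. Its core, the same letters without the first T and so contained in each consensus match, was found in 30 members (63.8%), against 19.2% of tested genes and 10.9% of all genes in the table. The NF-Y box CCAAT was found in 27 (57.4%), against 43.6% and 41.1%. A match describes these letters only and shows no binding.

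The following 7 stretches lie before a listed start in members of 4 steps. No rule fixed their choice among the 11 members with a consensus match before a listed start. Dnmt1, Orc1, Orc3 and Rfc3 also have such a match and are not printed. The stretches are read on the gene's own strand from 5′ to 3′ in GRCm38.p6, with the E2F consensus or its reverse complement in capitals. In Cdc6, Mcm7, Pola1 and Uhrf1 the listed start lies within the outer bounds of the gene, and so does the stretch. They come from the licensing factor Cdc6 (chr11:98907993-98908052, plus strand), the helicase genes Mcm5 (chr8:75109336-75109395, plus strand), Mcm6 (chr1:128359733-128359835, minus strand), Mcm7 (chr5:138172009-138172068, minus strand) and Gins3 (chr8:95633498-95633557, plus strand), the catalytic subunit of polymerase alpha, Pola1 (chrX:93632254-93632313, minus strand), and Uhrf1 (chr17:56304108-56304167, plus strand), which guides DNA methylation to new DNA.
Cdc6: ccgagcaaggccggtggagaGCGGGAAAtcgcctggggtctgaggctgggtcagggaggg
Mcm5: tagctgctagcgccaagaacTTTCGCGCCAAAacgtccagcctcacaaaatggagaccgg
Mcm6: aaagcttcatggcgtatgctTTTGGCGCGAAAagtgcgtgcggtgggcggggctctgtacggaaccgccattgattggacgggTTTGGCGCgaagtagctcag
Mcm7: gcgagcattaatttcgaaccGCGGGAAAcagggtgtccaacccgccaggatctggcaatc
Gins3: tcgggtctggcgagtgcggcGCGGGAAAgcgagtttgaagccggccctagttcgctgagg
Pola1: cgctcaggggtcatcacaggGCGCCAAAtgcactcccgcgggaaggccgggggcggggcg
Uhrf1: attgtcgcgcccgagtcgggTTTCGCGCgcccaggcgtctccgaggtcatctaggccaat

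In Mcm5 and in the first site of Mcm6, consensus matches on both strands overlap in a run of 12 bases. The 17 members with a match had log2 fold changes (CDs over untreated) from -0.28 to -0.06, with a median of -0.18, and the 30 members without one had values from -0.43 to -0.13, with a median of -0.23. The median difference between untreated 3 and untreated 1 and 2 was -0.62 in both sets, on the log2 scale.

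Library totals lay between 17695997 and 20066581 expected counts. All 10 erythroblast markers were tested. Their summed level ran from 56035 to 71153 CPM (counts scaled to library size) in CDs libraries and from 60475 to 72005 CPM in untreated libraries. Hba-a1 alone made up 31194 to 40299 CPM of this sum. Of the 10 markers 3 were lower in the CDs library of all 3 numbered pairs (26.2% of all genes tested were). In all 3 pairs 0 were higher (30.2% of genes). Klf1, among those lower, had 694, 590.0 and 285 CPM in CDs 1 to 3, against 735, 689 and 388 CPM in untreated 1 to 3. Alas2 stayed between 1644 and 1871 CPM in all 6 libraries. The libraries numbered 3 stood apart in both groups. Of the 15 macrophage markers 13 passed the filter and 0 were at 0 in all libraries. Their summed level was 402, 1693 and 5812 CPM in CDs 1 to 3, against 177, 519.9 and 4609 CPM in untreated 1 to 3. In the CDs library of all 3 numbered pairs 11 of the 13 were higher and 1 was lower. The lower one was Cd5l, with 0.629, 0.956 and 9.88 CPM in CDs 1 to 3, against 1.39, 3.22 and 14.6 CPM in untreated 1 to 3. Adgre1, Csf1r and Cd68, defining macrophage genes, were detected in every library, while Cd163 and Timd4 stayed below 1 CPM. Granulocyte markers summed to 316, 960.3 and 1483 CPM in CDs 1 to 3, against 221, 613 and 1409 CPM in untreated 1 to 3. Of the granulocyte markers 5 of 7 were higher in the CDs library of all 3 pairs. Hepatocyte markers summed to 360.0, 358 and 684 CPM in CDs 1 to 3, against 295, 228 and 509 CPM in untreated 1 to 3, and 7 of 8 were higher in all 3 pairs. Endothelial markers summed to 13.2, 29.0 and 82.3 CPM in CDs 1 to 3, against 6.61, 11.1 and 65.0 CPM in untreated 1 to 3, and all 4 that passed the filter were higher in all 3 pairs. The part of these cell types in the results was not tested. Megakaryocyte markers summed to 78.6 to 113 CPM with CDs and 78.0 to 81.6 CPM without, and the 3 lymphocyte markers in the table to 3.03 to 4.98 CPM with CDs and 2.63 to 4.89 CPM without. In bulk RNA, fewer cells of a type and less RNA per cell cannot be told apart. Libraries of equal number deviated together from their group means, with correlations over all genes tested of 0.910, 0.345 and 0.938 for numbers 1 to 3, so the numbers were taken as pairs. The labels state no pairing, and these correlations come from the same data that were then tested.

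All 57 replication genes had a log2 fold change below 0 (48.1% of all genes tested did), by a small amount. The values ran from -0.43 for Dut to -0.06 for Dnmt1, with a median of -0.22, against 0.01 over all genes tested. The standard errors ran from 0.17 to 0.48, with a median of 0.29, and 0 of the 57 passed edgeR's quasi-likelihood test, as did 0% of the 12283 genes, with adjusted p-values of at least 0.994. At an unadjusted p under 0.05 the same test called 0 members and 127 genes (1.03%). Groups overlapped in every member (2.33% of genes had groups apart on the lower side and 2.37% on the higher side), since CDs 1 and CDs 2 lay above untreated 3 in all 57. The 57 genes together held 1.37%, 1.26% and 0.799% of the counts in CDs 1 to 3, against 1.44%, 1.44% and 0.974% in untreated 1 to 3. Their summed level averaged 11405 ± 3304 CPM with CDs and 13016 ± 3008 CPM without (SD, n = 3 each).

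Set against its own number, the CDs library was lower in all 3 pairs in 50 members (87.7%), against 26.2% of all genes tested, and higher in all 3 in 0 members, against 30.2%. The median difference of the members was -0.14 in pair 1, -0.23 in pair 2 and -0.33 in pair 3 (log2), while all genes tested had medians of 0.04, -0.00 and -0.00. The largest difference fell in pair 3 in 48 members. With the replicate number as a block, the edgeR median over members was -0.23 and the median standard error narrowed to 0.07. That fit called 0 members at an adjusted p under 0.05, where it called 0.0407% of genes, 0.0163% on the lower side. At an adjusted p under 0.10 it called 14 members, all lower with CDs (24.6%), against 8.30% of genes in all and 3.13% on the lower side. At an unadjusted p under 0.05 it had 43 members (75.4%), against 11.9% of genes on the lower side. DESeq2 with the same block called 9 members lower (15.8%), against 2.09% of genes on that side and 9.85% in all: Mcm5, Prim1, Tipin, Rfc2, Rfc4, Rpa2, Tk1, Dut and Ccne1. DESeq2 without the block called 0 members and 0.114% of genes, and limma-voom with the block called 0 members and 0.0488% of genes.

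**Figure D1:**
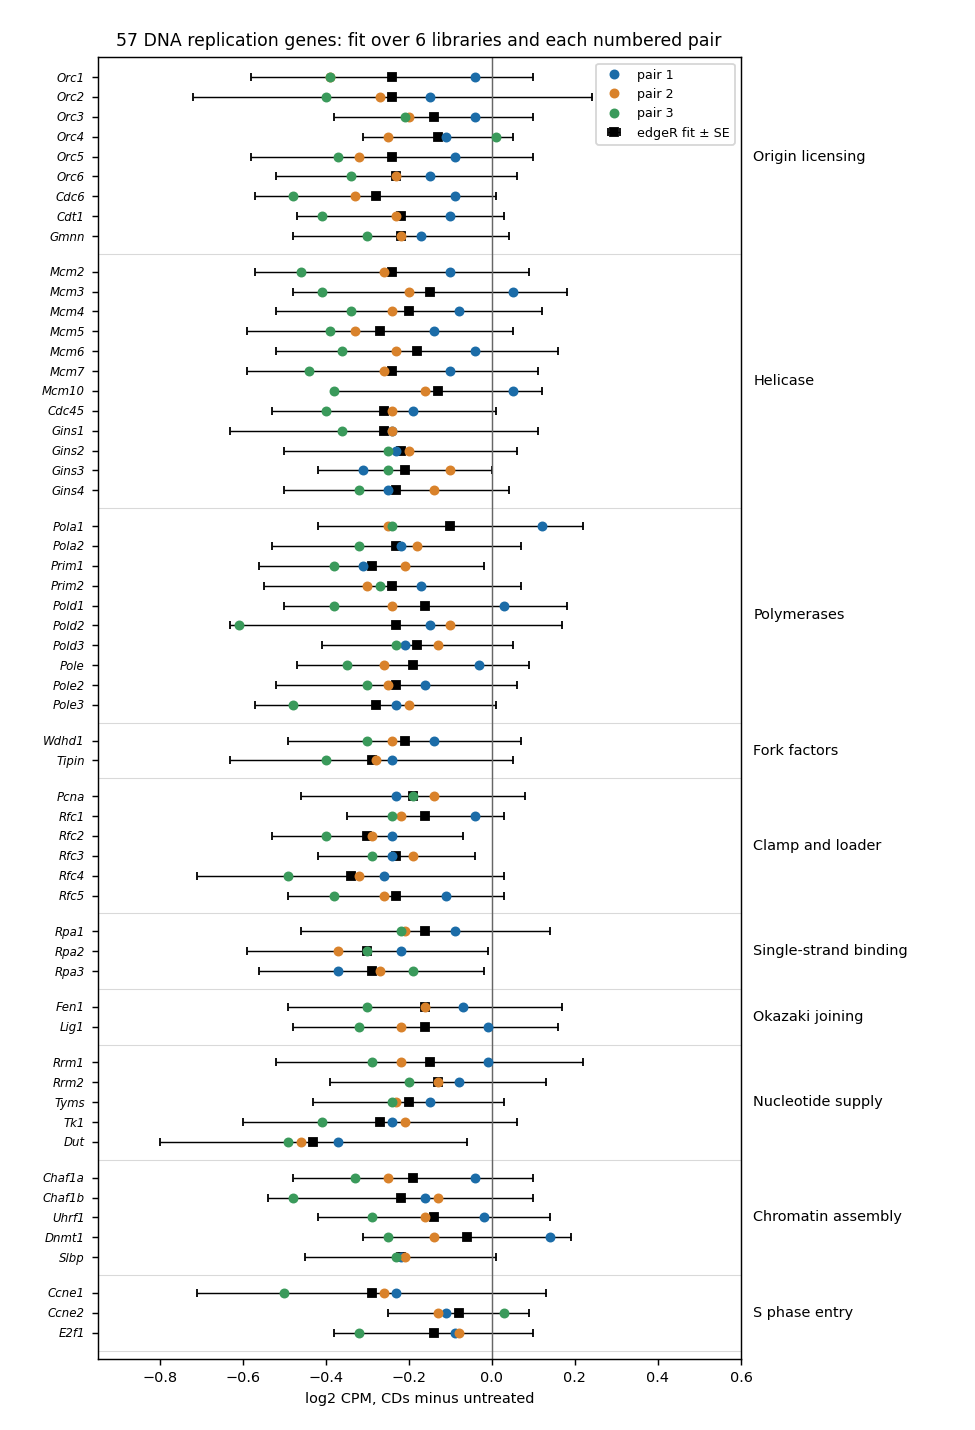
Difference in log2 CPM, CDs minus untreated, for each of the 57 genes, ordered by step. Black squares are the edgeR fit over 6 libraries with its standard error, and coloured circles are the 3 numbered pairs; every square lies below 0, and only 7 circles, 5 of pair 1 and 2 of pair 3, lie above it.

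**Figure D2:**
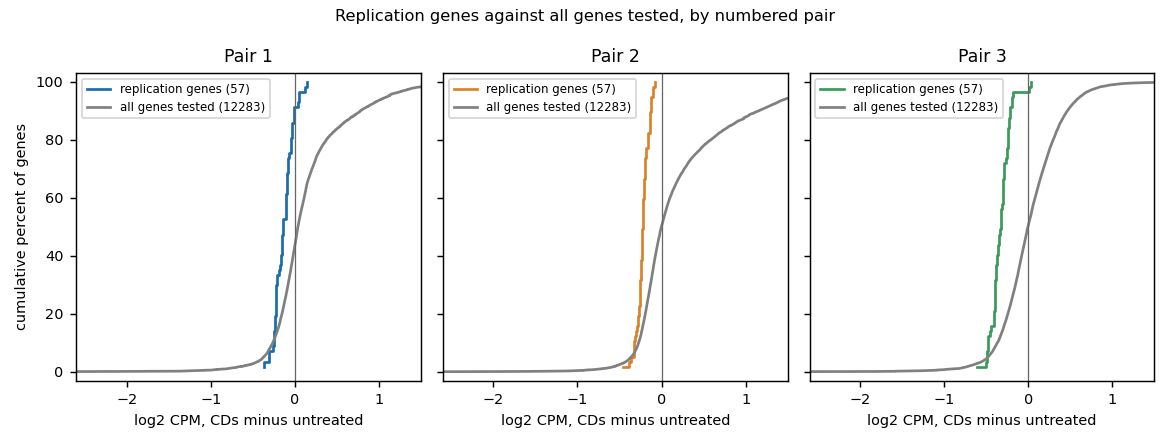
Cumulative percent of genes by their log2 CPM difference, CDs minus untreated, in each numbered pair, for the 57 replication genes (coloured) and all 12283 genes tested (grey). The replication genes form a narrow, steep curve left of the grey one at its midpoint in all 3 pairs, with medians of -0.14, -0.23 and -0.33.

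The libraries numbered 3 differed from the others of their own group by more than the groups differed from each other. Untreated 3 lay below the mean of untreated 1 and 2 in all 57 members, by a median of -0.62 (log2), and CDs 3 lay below the mean of CDs 1 and 2 in all 57, by a median of -0.77. Of the 12283 genes tested, 6142 lay below in untreated 3 (median -0.00) and 6122 in CDs 3 (median 0.00). Untreated 1 and 2 differed by a median of -0.02. CDs 3 was the lowest of the 6 libraries in 55 members, and untreated 1 or 2 was the highest in 52, which was not counted over all genes tested. Among numbers 1 and 2 alone, both CDs libraries lay below both untreated libraries in 46 members (80.7%), against 21.2% of all genes tested. When CDs 3 was left out and untreated 3 kept, the median over members moved to -0.01 and 31 members stayed below 0; when untreated 3 was left out and CDs 3 kept it moved to -0.39. When both libraries numbered 3 were left out it was -0.21, with all 57 below 0. In fits added after the data were seen, edgeR with the block called 0 members and 0% of genes without both libraries numbered 1. Without both numbered 2 it called 8 members, against 2.32% of genes on the lower side, and without both numbered 3 it called 10, against 2.97%.

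**Figure D3:**
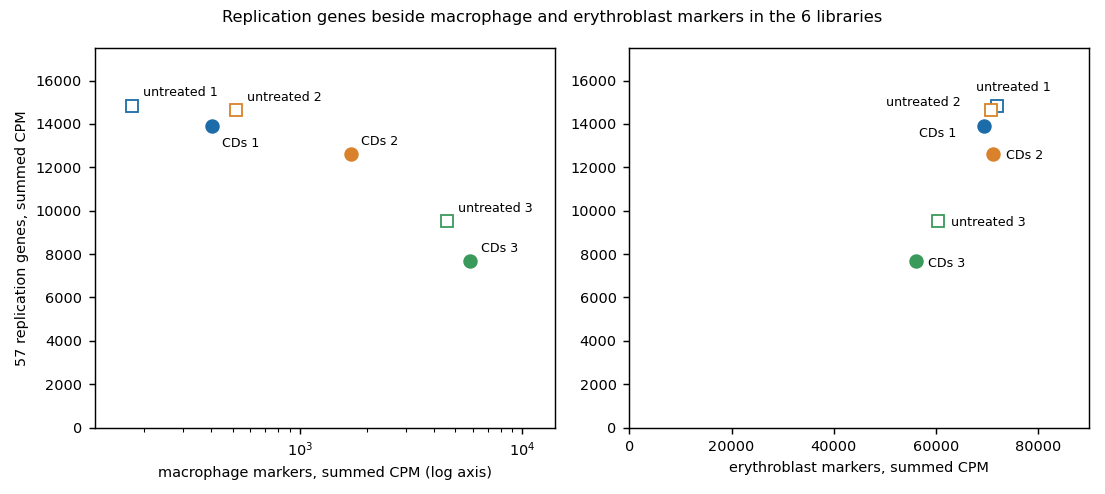
Summed CPM of the 57 replication genes in each library against the summed CPM of macrophage markers (left, log axis) and of erythroblast markers (right). Filled circles are CDs and open squares untreated libraries; CDs 3 and untreated 3 are lowest in replication genes, with 7662 and 9545 CPM, and highest in macrophage markers, with 5812 and 4609 CPM.

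The macrophage markers moved against the replication genes across libraries, and with the mean log2 level of these markers as a covariate the median over members was -0.03, with 42 of 57 below 0 and 0 called. The part of macrophage RNA in the result was not tested. By step, the medians of the log2 fold changes lay close together, from -0.29 for single-strand binding to -0.14 for S phase entry.

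**Figure D4:**
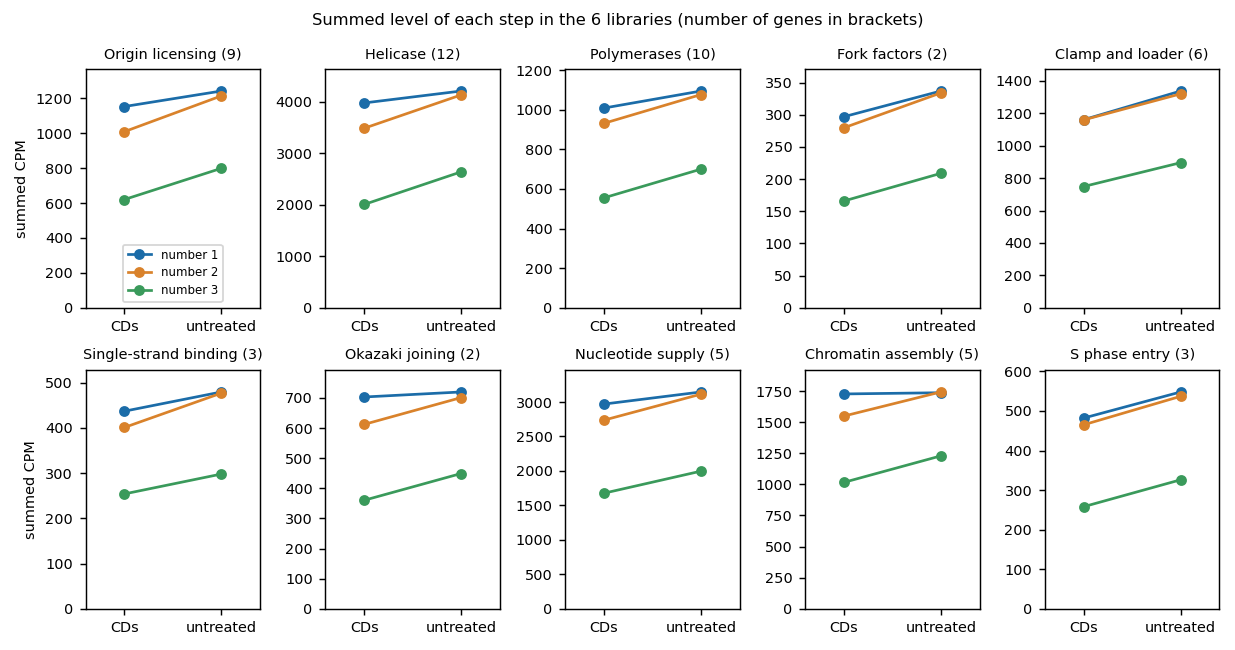
Summed CPM of the genes of each step in CDs libraries (left of each panel) and untreated libraries (right), with lines joining libraries of equal number and the number of genes in brackets. In every step the number 3 libraries are lowest in both groups, and the CDs point lies below its untreated partner in each pair, by as little as 1727 against 1737 CPM for chromatin assembly in pair 1.

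Origin licensing opens the series of steps. Its 9 genes summed to 1153, 1009 and 620.2 CPM in CDs 1 to 3, against 1242, 1214 and 799 CPM in untreated 1 to 3, with log2 fold changes from -0.28 to -0.13. Cdc6, the ATPase that joins ORC in loading the helicase, had 204, 180.0 and 109.8 CPM with CDs, against 217, 227 and 154 CPM without (-0.28 ± 0.29, SE). Its ranges overlapped, and its 2 lowest libraries were those numbered 3. Cdt1, which brings Mcm2-7 to the origin, had 266, 232 and 153 CPM with CDs, against 284, 271 and 204 CPM without (-0.22 ± 0.25). Gmnn encodes geminin, the inhibitor that binds Cdt1 after S phase begins, and had 83.0, 80.6 and 51.7 CPM with CDs, against 93.6, 93.7 and 63.5 CPM without (-0.22 ± 0.26). The inhibitor and its target kept a like ratio per length in FPKM, a level scaled to library size and transcript length, with Gmnn at 0.717, 0.797 and 0.772 of Cdt1 in CDs 1 to 3 and 0.754, 0.793 and 0.714 in untreated 1 to 3. The means of this ratio, 0.762 ± 0.0413 with CDs and 0.754 ± 0.0391 without (SD, n = 3 each), differed by less than the spread between libraries.

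The 6 ORC genes ran from -0.24 (Orc1, Orc2 and Orc5) to -0.13 (Orc4). Orc2 varied most between libraries, with 187, 157 and 68.5 CPM in CDs 1 to 3, against 208, 189 and 90.4 CPM in untreated 1 to 3 (-0.24 ± 0.48). Of the summed FPKM of the 6 ORC genes Orc2 held 22.0%, 21.3% and 15.4% with CDs, against 23.1%, 21.3% and 16.8% without, the widest swing of any subunit in this complex. Exons of Orc2 overlap those of Nif3l1 on the other strand over 1150 bases, and strand marking is not described in the library protocol. Orc4, the least abundant ORC subunit, had 38.9, 35.8 and 30.8 CPM with CDs, against 41.9, 42.6 and 30.6 CPM without (-0.13 ± 0.18). It was 1 of the 2 members not lower in CDs 3 than in untreated 3 (0.01).

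The helicase followed the same order of libraries. The 12 helicase genes summed to 3981, 3489 and 2008 CPM in CDs 1 to 3, against 4213, 4137 and 2642 CPM in untreated 1 to 3. Mcm7, the most abundant Mcm subunit per length, had 648, 574 and 311 CPM with CDs, against 697, 685 and 422 CPM without (-0.24 ± 0.35). Mcm5 had 559, 492 and 293 CPM with CDs, against 617, 617 and 384 CPM without (-0.27 ± 0.32), and was lower with CDs in DESeq2 with the block (adjusted p = 0.0321, from 0.0321 to 1 over the alternatives). Mcm2, Mcm4 and Mcm6 had log2 fold changes of -0.24, -0.20 and -0.18. Mcm3 had 476, 405 and 227 CPM with CDs, against 461, 464 and 302 CPM without (-0.15 ± 0.33), and was higher in CDs 1 than in untreated 1. The 6 ring subunits kept their proportions: each held a share of their summed FPKM that varied by at most 1.18 percentage points over the 6 libraries, with Mcm7 between 22.2% and 23.4% and Mcm4 between 11% and 11.6%.

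Cdc45, which joins the ring as the helicase is activated, had 109.9, 105 and 64.0 CPM with CDs, against 125, 124 and 84.4 CPM without (-0.26 ± 0.27). Mcm10, a factor of helicase activation, had 176, 151 and 99 CPM with CDs, against 169.8, 168 and 129 CPM without (-0.13 ± 0.25). The 4 GINS genes ran from -0.26 (Gins1) to -0.21 (Gins3) and were lower in the CDs library of all 3 pairs. Gins3 was the least abundant member per length of all 57, at a mean of 9.41 FPKM, and had 21.3, 25.5 and 17.1 CPM with CDs, against 26.4, 27.4 and 20.3 CPM without (-0.21 ± 0.21). Gins3 held 5.54% to 7.67% of the summed FPKM of the GINS genes, while Gins1, Gins2 and Gins4 each held between 25.9% and 33.5%. Gins2 shares 2758 exonic bases with Gse1 on the other strand.

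Polymerase genes, 10 in all, had log2 fold changes from -0.29 to -0.10. Prim1, the catalytic subunit of primase, had 82.2, 87.3 and 51.4 CPM with CDs, against 102, 101 and 66.9 CPM without (-0.29 ± 0.27), and was also called by DESeq2 with the block (adjusted p = 0.0381, from 0.0275 to 1 over the alternatives). Within each pair its CDs library was the lower one, and the groups overlapped through untreated 3. Its partner Pola1, the catalytic subunit of polymerase alpha, had 115, 95.9 and 58.4 CPM with CDs, against 106, 114 and 69.2 CPM without (-0.10 ± 0.32). Pola1 was higher in CDs 1 than in untreated 1, by 0.12, and its share of the FPKM of polymerase alpha and primase was 12.4%, 10.6% and 10.9% with CDs, against 9.88%, 10.7% and 10.2% without. Pola2 and Prim2 had -0.23 and -0.24.

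Pold1, the catalytic subunit of polymerase delta, had 160.2, 135 and 75.9 CPM with CDs, against 157, 159 and 99 CPM without (-0.16 ± 0.34), and Pold3, an accessory subunit, had -0.18 ± 0.23. Pold2, an accessory subunit of polymerase delta, had 72.8, 68.3 and 30.0 CPM with CDs, against 80.8, 73.4 and 46.0 CPM without (-0.23 ± 0.40), and its difference of -0.61 in pair 3 was the largest of any member in any pair. Pole3, a histone-fold subunit of polymerase epsilon and the most abundant polymerase gene per length, had 35.6, 33.9 and 19.5 CPM with CDs, against 41.7, 38.9 and 27.3 CPM without (-0.28 ± 0.29). Pole, the catalytic subunit of polymerase epsilon, had a mean of 13.9 FPKM, against 56.3 FPKM for Pole3.

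Of the fork factors, Tipin, which with Timeless protects stalled forks, had 124, 117 and 64.2 CPM with CDs, against 147, 142 and 84.7 CPM without (-0.29 ± 0.34). DESeq2 with the block gave Tipin an adjusted p = 0.0261, the lowest of its alternatives, which reached 1. Wdhd1, which links the helicase to polymerase alpha, had 173, 163 and 101 CPM with CDs, against 190.2, 192 and 125 CPM without (-0.21 ± 0.28). Both were lower in the CDs library of each pair.

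The clamp and its loader were lower in CDs libraries of every pair in all 6 genes. Pcna, the sliding clamp and the second most abundant member per length after Rrm2, had 669, 697 and 442 CPM with CDs, against 785, 766 and 504 CPM without (-0.19 ± 0.27). Its ranges overlapped, with both number 3 libraries below the other 4. Rfc2 had 129, 129 and 84.7 CPM with CDs, against 153, 158 and 111 CPM without (-0.30 ± 0.23), the smallest unadjusted p among members (0.253) without the block and an adjusted p = 0.0195 in DESeq2 with it (from 0.0195 to 1 over the alternatives). Rfc3 had 49.4, 49.3 and 35.7 CPM with CDs, against 58.4, 56.2 and 43.6 CPM without (-0.23 ± 0.19). Rfc4 had 86.3, 80.3 and 40.7 CPM with CDs, against 104, 100.5 and 57.4 CPM without (-0.34 ± 0.37), with an adjusted p = 0.0174 in DESeq2 with the block (from 0.0146 to 1 over the alternatives). Rfc1 (-0.16) and Rfc5 (-0.23) complete the loader. Rfc4 held 25.7%, 25.1% and 20% of the FPKM of the 5 loader genes with CDs, against 26.7%, 26.0% and 21.6% without, so its share was lowest in the number 3 libraries of both groups. Rfc2 overlaps Lat2 over 952 exonic bases and Rfc4 overlaps Eif4a2 over 194, in both cases on opposite strands.

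Single-strand binding proteins coat the unwound template, and their 3 genes had the lowest median of any step (-0.29). Rpa2 had 85.5, 84.0 and 51.8 CPM with CDs, against 99.6, 109 and 63.9 CPM without (-0.30 ± 0.29). It was called lower in DESeq2 with the block (adjusted p = 0.0445, from 0.0153 to 1 over the alternatives). Rpa3, the smallest subunit, had 20.5, 21.9 and 14.5 CPM with CDs, against 26.5, 26.6 and 16.5 CPM without (-0.29 ± 0.27). Rpa1, the largest subunit, had 331, 295 and 188 CPM with CDs, against 353, 341 and 218 CPM without (-0.16 ± 0.30). Rpa1 held between 51.7% and 57% of their summed FPKM, with the highest share in CDs 1.

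Okazaki fragments are trimmed by the flap nuclease Fen1 and sealed by the ligase Lig1. Fen1 had 263, 238 and 135 CPM with CDs, against 277, 266 and 167 CPM without (-0.16 ± 0.33). Lig1 had 439, 374 and 225 CPM with CDs, against 443, 435 and 281 CPM without (-0.16 ± 0.32). In both genes CDs 1 and untreated 1 were nearly level, at -0.07 for Fen1 and -0.01 for Lig1.

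Nucleotide supply held the member with the largest difference. Dut, the dUTPase that keeps uracil out of DNA and makes the precursor of thymidylate, had 115, 108 and 57.2 CPM with CDs, against 149, 148 and 80.1 CPM without (-0.43 ± 0.37). The difference was -0.37, -0.46 and -0.49 (log2 CPM) in pairs 1 to 3, and the groups overlapped because untreated 3 lay below CDs 1 and 2. Dut had the smallest adjusted p of all members in DESeq2 with the block (0.000732, against 0.0916 in edgeR with the block and 1 at most over the alternatives). Tk1, thymidine kinase, had 183, 187 and 99.6 CPM with CDs, against 216, 216 and 132 CPM without (-0.27 ± 0.33), with an adjusted p = 0.0326 in DESeq2 with the block (from 0.0326 to 1 over the alternatives). Tyms, thymidylate synthase, had 157, 152 and 105 CPM with CDs, against 174, 177 and 124 CPM without (-0.20 ± 0.23). Relative to Tyms, Dut measured 1.22, 1.17 and 0.908 (ratio of FPKM) with CDs, against 1.41, 1.38 and 1.07 without.

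Ribonucleotide reductase, which makes deoxynucleotides, had the smaller differences of this step. Rrm2, its regulated subunit and the most abundant member per length at a mean of 596 FPKM, had 1444, 1406 and 918 CPM with CDs, against 1526, 1542 and 1053 CPM without (-0.13 ± 0.26). Rrm1, its large subunit, had 1071, 885 and 497 CPM with CDs, against 1079.9, 1031 and 608 CPM without (-0.15 ± 0.37). The ratio of Rrm2 to Rrm1 in FPKM was 2.49, 2.94 and 3.41 with CDs and 2.61, 2.76 and 3.20 without, highest in the libraries numbered 3 of both groups.

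Chromatin assembly and maintenance methylation gave values between -0.22 and -0.06. Slbp, which binds the stem-loop of histone messages, had 315, 325 and 223 CPM with CDs, against 366, 376 and 261 CPM without (-0.22 ± 0.23), and differed by nearly the same amount in each pair (-0.22, -0.21 and -0.23). Chaf1b, a subunit of the histone chaperone CAF-1, had 91.7, 86.6 and 46.8 CPM with CDs, against 102, 94.4 and 65.2 CPM without (-0.22 ± 0.32). Chaf1a, its partner, had -0.19 ± 0.29 and shares 4648 exonic bases with Ubxn6 on the other strand. Uhrf1 had 514, 464 and 288 CPM with CDs, against 519, 519 and 353 CPM without (-0.14 ± 0.28). Dnmt1, the maintenance methyltransferase, had 654, 535 and 373 CPM with CDs, against 591, 589 and 443 CPM without (-0.06 ± 0.25), the member nearest to 0. It was 0.14 higher in CDs 1 than in untreated 1 (log2), with differences of -0.14 and -0.25 in pairs 2 and 3.

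S phase entry was read from both E-type cyclins and E2f1. Ccne1 had 315, 294 and 135 CPM with CDs, against 369.6, 353 and 191 CPM without (-0.29 ± 0.42), and was called lower in DESeq2 with the block (adjusted p = 0.0175, from 0.0175 to 1 over the alternatives). Ccne2 had 77.7, 83.0 and 67.4 CPM with CDs, against 83.6, 90.9 and 65.8 CPM without (-0.08 ± 0.17), and was 0.03 higher in CDs 3 than in untreated 3. The ratio of Ccne2 to Ccne1 in FPKM was 0.176, 0.202 and 0.358 with CDs, against 0.162, 0.185 and 0.247 without, higher in the CDs library of all 3 pairs and highest in library 3 of both groups. Its means, 0.245 ± 0.0984 with CDs and 0.198 ± 0.0440 without (SD, n = 3 each), were not tested against each other. E2f1, the transcription factor that drives many of these genes, had 88.8, 88.4 and 55.7 CPM with CDs, against 94.4, 93.2 and 69.8 CPM without (-0.14 ± 0.24).

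Members that stood out from the common direction were few and were singled out after their values were seen. Mcm3, Mcm10, Pola1, Pold1 and Dnmt1 were higher in CDs 1 than in untreated 1, by 0.05, 0.05, 0.12, 0.03 and 0.14, and Orc4 and Ccne2 were higher in CDs 3 than in untreated 3. In pair 2 all 57 were lower. The 5 exceptions of pair 1 have transcripts of 2.92 to 5.39 kb, above the members' median of 2.41 kb. The difference in that pair ran with length over the members (Spearman's rho of 0.77 over 57 genes, all read from the same 2 libraries), a check added after the data were seen. Differences in pair 1 lay between -0.37 (Rpa3 at 0.62 kb and Dut at 2.33 kb) and 0.14 (Dnmt1 at 5.39 kb). The shortest member, Pole3 (0.58 kb), had -0.23 and the longest, Pole (7.27 kb), had -0.03. In pairs 2 and 3 rho was -0.02 and 0.15, and with the fold change over all 6 libraries it was 0.58. Over all 12283 genes tested rho was 0.35, 0.07 and 0.24 in pairs 1 to 3, and 0.27 over all 6 libraries. In pair 1 the 29 shorter members had a median of -0.22, against -0.07 for the 4665 tested genes of like length, and the 28 longer members a median of -0.06, against 0.08 for 6662 genes. In pair 2 these medians were -0.23 against -0.03 and -0.22 against 0.03, and in pair 3 -0.37 against -0.08 and -0.32 against 0.04. The part of transcript length in the differences was not tested.

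**Figure D5:**
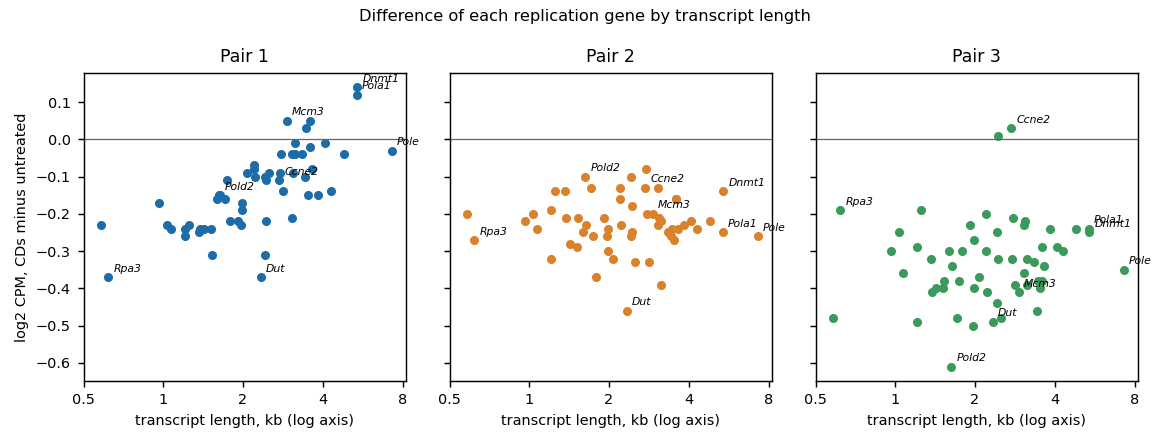
Difference in log2 CPM, CDs minus untreated, against transcript length in kb (log axis) for the 57 genes in each numbered pair, with some genes named. In pair 1 the points tend to rise with length, with Rpa3 at -0.37 and Dnmt1 at 0.14, though Pole, the longest, lies at -0.03. In pairs 2 and 3 the points show no such slope.

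The other genes of replication and its control, 50 in all, had log2 fold changes from -0.36 to 0.31 with a median of -0.14. Of these 41 (82.0%) were below 0, against 48.1% of all genes tested. In all 3 pairs 29 were lower in the CDs library, against 26.2% of genes, and 3 were higher, against 30.2%. With edgeR 0 passed without the block, where 0 had an unadjusted p under 0.05, and the block gave 6 at an adjusted p under 0.10, against 8.30% of genes, and 0 at 0.05. Among those that DESeq2 with the block called lower with CDs, as it did 2.09% of genes, were Recql4, a helicase of origin firing (adjusted p = 0.0344), and Asf1a, a histone chaperone (adjusted p = 0.0328). Recql4 had 81.9, 69.2 and 35.7 CPM with CDs, against 92.1, 91.1 and 56.4 CPM without (-0.36 ± 0.37). Samhd1, which breaks down deoxynucleotides and is also abundant in macrophages, was called higher (adjusted p = 0.0499 in DESeq2 with the block) and had 189.7, 301 and 673 CPM with CDs, against 152, 182 and 601 CPM without (0.31 ± 0.72). It was highest in the libraries numbered 3, as the macrophage markers were, and the part of macrophage RNA in its level was not tested. In edgeR with the block the adjusted p was 0.0996 for Recql4, 0.0916 for Asf1a and 0.115 for Samhd1, and without the block it was 0.994 for all of them. Among the E2F and Rb genes, E2f2 had 0.05 ± 0.17, E2f7 0.02 ± 0.14, Rb1 0.06 ± 0.18 and Rbl2 0.11 ± 0.14, while E2f8 had -0.14 ± 0.20, Rbl1 -0.10 ± 0.18 and E2f3 -0.05 ± 0.19.

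Of the 57 members 21 share exonic bases with another gene, 18 of them with a gene on the other strand, so that part of their counts could belong to that partner. The pseudogenes Pcna-ps1, Pcna-ps2 and Tyms-ps have no row in the count table, and how reads shared with them were assigned is not given in the sources used here. For all 57 members the deposited counts and FPKM gave like differences between libraries, with a root mean square deviation of at most 0.0382 on the log2 scale.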

How the data were processed

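RNA of 6 libraries was sequenced as single-end reads of 50 bases, per the labels' protocols. The authors deposited a table of expected counts per gene, in which 30.1% of values were not whole, and a table of FPKM per gene. Per the submitters' processing notes, GRCm38.p6, RSEM 1.2.12, DESeq2 1.4.5, Bowtie2 2.2.5 and HISAT2 2.0.4 were used, with roles not given in the sources used here. The unit of the FPKM table was worked out from its values.

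Expected counts were rounded to whole numbers and analysed in R 4.3.3 with edgeR 4.0.16: filterByExpr kept 12283 of 17691 genes, libraries were scaled by TMM, and CDs were set against untreated libraries with the robust quasi-likelihood test. P-values were adjusted by Benjamini-Hochberg across every tested gene and called under 0.05. CPM are counts scaled to library size, and log2 CPM used a prior count of 2. FPKM served for levels between genes and were not tested. Alternatives were the replicate number as a block, DESeq2 1.42.0, limma-voom 3.58.1, RLE scaling, no filter, a macrophage marker covariate and leaving out libraries. Labels give both groups the numbers 1 to 3. Same-numbered libraries deviated together (correlations given in the results), and each CDs library matched its own number best, so the numbers were taken as pairs. The labels do not state this pairing, which was read from the same values that the fits with the block then tested. Within each group, no pair of libraries agreed within sampling noise, and pairs across the groups were not checked. Both edgeR fits were tested on simulated data drawn from the fit with the block, with known changes larger than that of any member. On these the fit with the block recovered most of the changed genes, but the share of false calls among its calls exceeded 0.05. The fit without the block recovered none. As the pairs were built into the simulated data, they cannot show which fit serves the real data better, nor how either handles smaller changes. The absence of calls without the block does not show that genes did not differ. Exon overlaps were read from GENCODE M21.

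The members and lists were chosen with earlier results of these data known. Genes were named by rule: per step, the 2 members with the smallest unadjusted p and the one with the highest FPKM, and any above 0, called with the block or with groups apart. Members named besides these (such as Mcm3, Mcm5, Mcm10, Orc2, Orc4, Pola1, Pold1, Pold2, Rfc4, Tk1, Rrm1, Dnmt1, Uhrf1, Gmnn and Ccne2) were chosen after their values were seen. No columns were left unused.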

Additional observations from a re-analysis of the deposited data

How the results depend on the processing

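All 57 replication genes stayed below 0 in 16 of 20 alternatives, and 0 were called in 17 of 20. The edgeR count of 0 genes called became 5 with the replicate block, 14 with DESeq2, 1210 with DESeq2 and the block, 6 with limma-voom and the block, and 57 with the macrophage covariate. The members called numbered 9 with DESeq2 and the block. In fits chosen after seeing the data, the block without both libraries numbered 2 called 899 genes and 8 members, without both numbered 3 it called 1835 genes and 10 members, and without both numbered 1 it called 0 of each. Over all 6 libraries, edgeR and limma-voom with the block each called 0 members. The median over members was -0.03 with the macrophage covariate and ran from -0.39 to -0.01 when 1 library was left out, with 31 to 57 members below 0. Without CDs 1 or untreated 3 it was -0.39, without CDs 2 -0.32, without untreated 1 -0.11, without untreated 2 -0.13 and without CDs 3 -0.01; the lowest count of 31 came without CDs 3. The cause of these shifts was not tested.

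With the macrophage covariate 15 members had log2 fold changes at or above 0: Ccne2 0.01, Dnmt1 0.08, Fen1 0.05, Lig1 0.03, Mcm3 0.03, Mcm6 0.02, Orc2 0.08, Orc3 0.01, Pola1 0.09, Pold1 0.04, Pold2 0.00, Rpa1 0.03, Rrm1 0.08, Rrm2 0.03, Uhrf1 0.03. Leaving out 1 library turned the sign of 26, which ran as follows: Ccne1 -0.54 to 0.00, Ccne2 -0.20 to 0.02, Chaf1a -0.37 to 0.02, Chaf1b -0.40 to 0.03, Dnmt1 -0.26 to 0.13, E2f1 -0.27 to 0.05, Fen1 -0.36 to 0.08, Lig1 -0.37 to 0.07, Mcm10 -0.32 to 0.07, Mcm2 -0.45 to 0.01, Mcm3 -0.38 to 0.11, Mcm4 -0.40 to 0.03, Mcm6 -0.41 to 0.07, Mcm7 -0.45 to 0.02, Orc1 -0.54 to 0.00, Orc2 -0.54 to 0.08, Orc3 -0.33 to 0.03, Orc5 -0.47 to 0.01, Pola1 -0.33 to 0.13, Pold1 -0.40 to 0.09, Pold2 -0.45 to 0.08, Pole -0.39 to 0.03, Rpa1 -0.36 to 0.04, Rrm1 -0.40 to 0.11, Rrm2 -0.29 to 0.05, Uhrf1 -0.31 to 0.08. With 3 libraries a group, standard errors near 0.29 without the block limit what differences of this size can show.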
